A study of Homo sapiens with 6 samples.

Results

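The proteasome subunit genes were followed in OCI-AML3 cells given Vorinostat or its solvent. They were taken as the probe sets that name 1 gene called PSMA, PSMB, PSMC or PSMD with a number, without PSMB8, PSMB9 and PSMB10, which form the immunoproteasome. The rule found 31 genes of 19775 measured, of which 14 encode core subunits (PSMA and PSMB) and 17 are cap genes (PSMC and PSMD). A probe set is a group of probes read together as 1 value, and each gene is represented by the one whose mean over all 6 arrays was highest. The members held 58 probe sets in all, and 18 of the 31 genes had several. PSMA6 shares its probe sets with another gene, and no probe set naming PSMC5, PSMD7 or PSMD13 alone was used, so these 4 genes were not analysed here.

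The proteasome degrades proteins that carry ubiquitin. Its core particle is a barrel in which rings of alpha subunits (PSMA) gate the entry and rings of beta subunits (PSMB) hold the proteolytic sites. The regulatory cap recognises ubiquitin, removes it, and unfolds the substrate with a ring of ATPases (PSMC) held by non-ATPase subunits (PSMD). Most of these genes are expressed in all cells. Myeloid leukaemia cells, like other rapidly dividing cells, depend on the complex, and its beta subunit PSMB5 is the main target of bortezomib. The PSMD name also covers PSMD5, PSMD9 and PSMD10, which are chaperones of cap assembly and not subunits of the finished particle. PSMA8 is a testis form of an alpha subunit.

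OCI-AML3 is a cell line from a human acute myeloid leukaemia that carries mutated nucleophosmin, and Vorinostat (SAHA) is an inhibitor of histone deacetylases. Total RNA came from 3 samples given 1 μM Vorinostat for 24 h and from 3 samples given DMSO for 24 h, with the replicate numbers 1, 2 and 3 in each group. It was hybridised to Affymetrix arrays, and the authors deposited log2 values. Neither the labels nor the methods tell if each sample was a culture of its own. A p-value therefore reflects the spread among these 6 arrays alone, and that spread may be technical. As a model the study is limited to 1 cell line. The number of arrays limits the precision. In RNA from a bulk culture, fewer cells and less RNA per cell cannot be told apart.

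The arrays differed in signal by replicate number. The 95th percentile of all probe sets was 5.58 on the Vorinostat number 1 array and 5.78 on the DMSO number 1 array, and it lay between 3.01 and 3.48 on the other 4 arrays. Of 9 myeloid markers measured, 4 had a mean log2 value of 3 or more (CEBPA, ELANE, LYZ and AZU1), while MPO lay between 1.76 and 2.76 on all arrays. Of 21 markers of other lineages, 1 did (PECAM1), and their summed log2 values lay between 39.6 and 42.3 with Vorinostat and between 36.0 and 39.9 with DMSO. PECAM1, listed here as endothelial, and AZU1 exceeded a log2 value of 3 on the number 1 arrays only.

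The proteasome genes followed the signal of the arrays. Over the 31 members, the median log2 value with Vorinostat was 7.15, 2.58 and 3.29 in replicate numbers 1, 2 and 3. With DMSO it was 7.17, 3.80 and 2.79 in the same order. The number 1 arrays were the highest of their group for 30 of the 31 members in both groups. A log2 value of 3 was exceeded by 29, 12 and 17 members on the Vorinostat arrays of numbers 1, 2 and 3, and by 29, 23 and 12 members on the DMSO arrays. The median range of a member was 3.87 among the Vorinostat arrays and 3.41 among the DMSO arrays, while the median size of its difference between the treatments was 0.38. For 0 of the 31 members was that difference larger than the smaller of both ranges. The part that array signal has in the differences below was not tested.

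**Figure D1:**
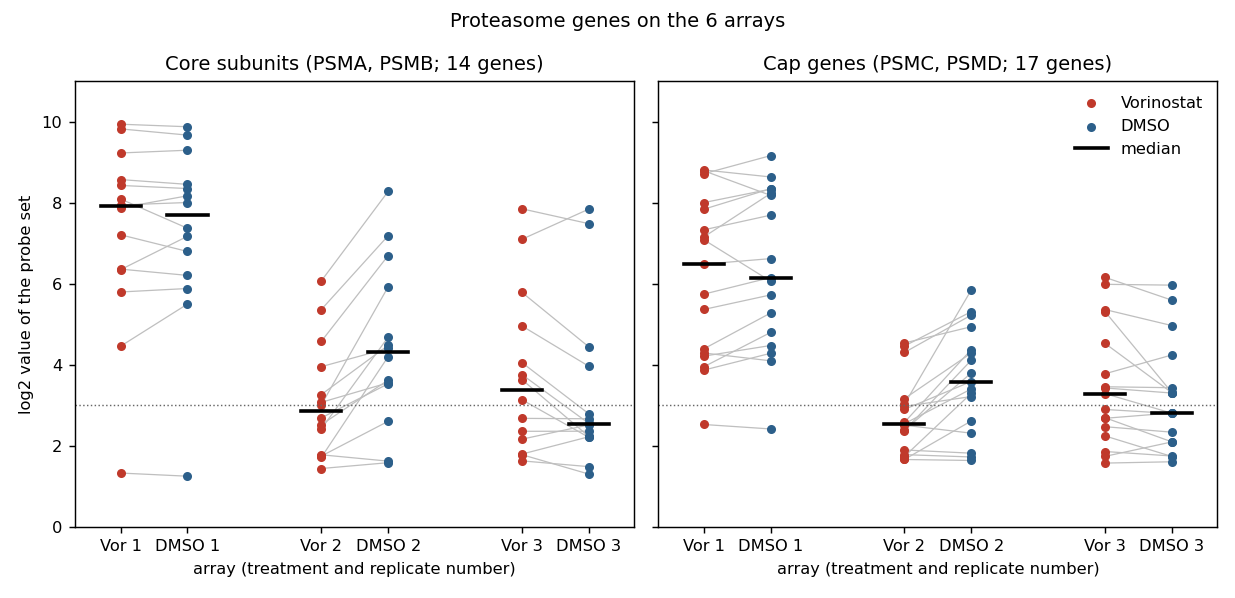
Log2 value of each proteasome gene (points, lines join the same gene) on the Vorinostat and DMSO array of each replicate number, with the 14 core genes on the left and the 17 cap genes on the right. Black bars are medians and the dotted line marks a log2 value of 3. Values are highest on both number 1 arrays, with medians over all 31 genes of 7.15 with Vorinostat and 7.17 with DMSO.

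No proteasome gene passed the tests across all probe sets. At an adjusted p under 0.05 from limma, 0 of the 31 members were called, against 0% of all genes. At an unadjusted p under 0.05 from limma, 0 were lower with Vorinostat, against 0.389% of all genes, and 0 were higher, against 0.602%. The methods' t-test on the same values also called 0 lower and 0 higher members at an unadjusted p under 0.05, against 0.673% and 0.855% of all genes. The study's threshold asks for a fold over 2 together with an unadjusted p under 0.05. Applied to the limma fit used here, it gave 0 lower and 0 higher members, where the backgrounds were 0.0506% and 0.0455%. The paper, with its own processing, reports more genes past this threshold in each direction. The Vorinostat arrays lay all below the DMSO arrays for 0 members and all above them for 0, against 1.95% and 2.30% of all genes. Standard errors from limma ran between 0.138 and 2.61 on the log2 scale with a median of 1.37, so a difference of 2-fold was within the error for most members.
Samples with the same number deviated from their group means together, so the number was also used as a block. How numbers 2 and 3 pair is uncertain. The deviations of Vorinostat number 2 correlated at 0.695 with DMSO number 3 and at 0.599 with DMSO number 2. The block lowered the standard error of each of the 31 members, to a median of 0.285. With the replicate block PSMB5 was lower and PSMC1 was higher at an unadjusted p under 0.05 from limma, 1 member in each direction against 3.12% and 2.25% of all genes, and 9.35% and 2.46% of the 3379 genes with a mean log2 value of 3 or more. PSMB5 alone was then also over 2-fold, where the background was 0.632% for lower genes (3.26% of those with a mean of 3 or more) and 0.197% for higher ones. Neither passed after adjustment (adjusted p = 0.887 from limma for both).

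The starts of the 3 members below are shown because PSMB5 and PSMC1 passed an unadjusted p under 0.05 with the block in opposite directions, and PSMD8 was lower in each number. PSMB1, PSMA7 and PSMD2 were also lower in each number and are not printed. The printed sequences are the 250 bases before the gene's start from RefSeq (GRCh38.p14), 5′ to 3′ on the gene's strand, in lower case. PSMB5 has a second, downstream start in RefSeq, whose window held none of the motifs below and is not printed. Capitals mark 4 motifs searched on both strands, namely CCAAT (bound by NF-Y), TGACNNNGC (the element read by NFE2L1 and NFE2L2), CCGGAAGT (an ETS factor element) and GGGCGG (bound by SP1). Those of PSMC1 and PSMD8 lie on the other strand, so their capitals spell the reverse complement, and the printed motifs do not overlap.
PSMB5, chr14:23035221-23035470, minus strand: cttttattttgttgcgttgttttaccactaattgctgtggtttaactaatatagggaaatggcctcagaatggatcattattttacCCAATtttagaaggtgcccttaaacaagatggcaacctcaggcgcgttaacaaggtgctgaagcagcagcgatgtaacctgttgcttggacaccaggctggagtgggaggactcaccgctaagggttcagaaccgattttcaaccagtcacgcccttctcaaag
PSMC1, chr14:90256303-90256552, plus strand: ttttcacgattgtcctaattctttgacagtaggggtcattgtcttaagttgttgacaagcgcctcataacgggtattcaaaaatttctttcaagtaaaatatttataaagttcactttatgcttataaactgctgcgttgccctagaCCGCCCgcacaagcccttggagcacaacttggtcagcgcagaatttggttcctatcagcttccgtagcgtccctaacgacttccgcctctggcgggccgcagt
PSMD8, chr19:38374321-38374570, plus strand: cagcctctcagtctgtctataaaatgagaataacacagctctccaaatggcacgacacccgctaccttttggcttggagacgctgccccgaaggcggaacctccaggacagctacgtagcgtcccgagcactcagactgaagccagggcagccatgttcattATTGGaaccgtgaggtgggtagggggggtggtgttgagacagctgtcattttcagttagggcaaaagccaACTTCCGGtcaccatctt
PSMB5 held 1 CCAAT and none of the others in the printed window, PSMC1 held 1 GGGCGG, and PSMD8 held 1 CCAAT and 1 CCGGAAGT. Of the 31 members, 26 matched the RefSeq windows. CCAAT was found in 13 of these 26 (50.0%), against 37.0% of 27305 genes with such windows, and TGACNNNGC in 6 (23.1%), against 13.2%. CCGGAAGT was found in 4 (15.4%), against 4.13%, and GGGCGG in 15 (57.7%), against 46.2%. A gene was counted when any of its windows held the motif. The 27305 genes are all those with a window, more than the 19775 measured, and were not matched to the members. No excess of a motif is therefore read from these shares. A match is a description of letters, and binding was not measured on these arrays.

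Among the beta subunits with a proteolytic site, PSMB5 was lower with Vorinostat in every replicate number, and PSMB6 and PSMB7 were lower in some numbers and higher in others. PSMB5 carries the chymotrypsin-like site. It had log2 values of 4.46, 1.71 and 2.16 on the Vorinostat arrays of numbers 1, 2 and 3, against 5.50, 4.20 and 2.51 on the DMSO arrays. The Vorinostat array lay under the DMSO array of its number each time, but the groups overlapped, since the Vorinostat number 1 array lay above the DMSO arrays of numbers 2 and 3. PSMB5 averaged 2.78 ± 1.47 with Vorinostat and 4.07 ± 1.50 with DMSO (SD, n = 3 each). The log2 difference was -1.29 (standard error 1.04, 95% interval -3.92 to 1.33), the most negative of the 31 members, with an unadjusted p of 0.266 from limma. With the block its interval was -2.52 to -0.07 (unadjusted p = 0.0424 from limma). Since its mean with Vorinostat lay under a log2 value of 3, the size of the difference is poorly measured. Without 1 array its difference lay between -2.13 (without Vorinostat number 1) and -0.58 (without DMSO number 1), and it was -0.76 without Vorinostat number 2 and -2.07 without DMSO number 3.
PSMB6 carries the caspase-like site and had 6.35, 2.52 and 3.76 on the Vorinostat arrays, against 7.17, 3.62 and 2.55 on the DMSO arrays. It was lower with Vorinostat in numbers 1 and 2 (-0.82 and -1.10) and higher in number 3 (1.20). Its log2 difference was -0.24 (standard error 1.54, interval -4.12 to 3.64). PSMB7 carries the trypsin-like site and had 8.09, 3.26 and 4.96 on the Vorinostat arrays, against 7.37, 4.48 and 3.96 on the DMSO arrays. It was higher in numbers 1 and 3 (0.72 and 1.00) and lower in number 2 (-1.22), which left a log2 difference of 0.17 (standard error 1.52, interval -3.65 to 3.99).

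**Figure D2:**
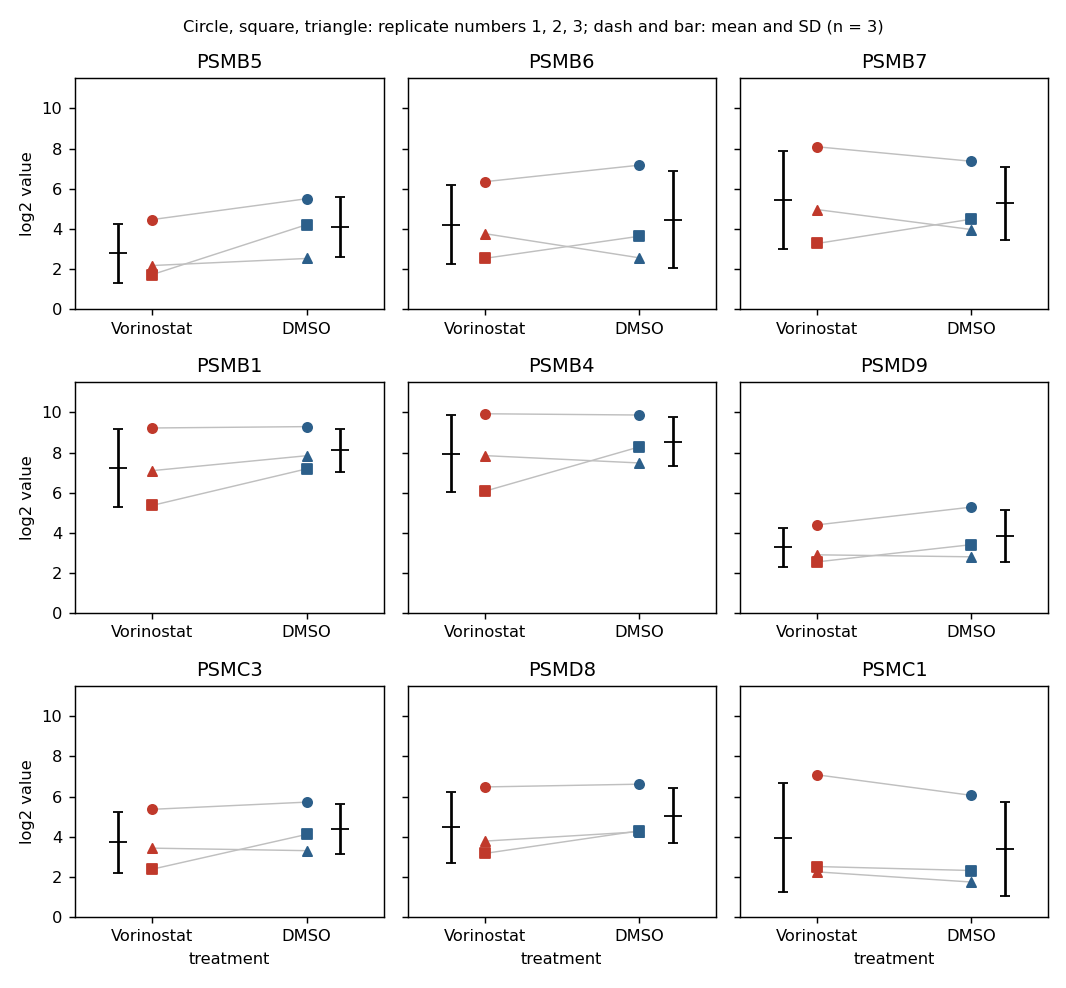
Log2 values of 9 proteasome genes on the Vorinostat (left) and DMSO (right) arrays. Lines join arrays of the same replicate number, and the dash and bar beside each group give its mean and SD (n = 3). PSMB5 is lower with Vorinostat along all 3 lines and PSMC1 is higher along all 3, while the groups overlap in all 9 panels.

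The beta subunits without a proteolytic site differed among themselves. PSMB1 had 9.22, 5.36 and 7.10 on the Vorinostat arrays, against 9.29, 7.18 and 7.84 on the DMSO arrays. Its values were lower in each number, with differences of -0.07, -1.82 and -0.74, and the log2 difference was -0.88 (standard error 1.10, unadjusted p = 0.459 from limma). It was -0.22 after quantile normalisation and -0.54 with the mean of its probe sets. PSMB4 had 9.93, 6.07 and 7.85 with Vorinostat, against 9.87, 8.28 and 7.48 with DMSO. It was lower only in number 2 (-2.21), and its log2 difference of -0.59 (standard error 1.14, unadjusted p = 0.623 from limma) became 0.14 after quantile normalisation. PSMB2 and PSMB3 had positive log2 differences of 0.30 and 0.40, with standard errors of 1.88 and 1.51, and were higher in number 3 (1.40 and 1.26) and lower in number 2 (-0.45 and -0.48).
Of the 7 alpha subunit genes, 5 had a negative log2 difference. The most negative was PSMA4 at -0.85 (standard error 2.06), with -0.30, -2.27 and 0.01 within the numbers. PSMA5 was higher in each number (0.16, 0.16 and 0.48), with 6.36, 1.78 and 1.78 on the Vorinostat arrays, against 6.20, 1.62 and 1.30 on the DMSO arrays. The number 2 and 3 arrays of both groups gave it values under 2, which leaves its level there poorly measured. PSMA1 and PSMA2 turned most between numbers 2 and 3, PSMA1 with -2.12 and 1.35 and PSMA2 with -2.92 and 0.93. PSMA3 had -0.86 and -0.43 in those numbers and 0.12 in number 1. PSMA7 differed by -0.09 and -0.84 in numbers 1 and 2 and by -0.002 in number 3. The testis form PSMA8 lay between 1.33 and 1.63 with Vorinostat and between 1.25 and 1.58 with DMSO.

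In the ATPase ring of the cap, PSMC1 was higher with Vorinostat in every replicate number, while the other 4 genes were higher in some numbers and lower in others. PSMC1 had 7.09, 2.51 and 2.24 on the Vorinostat arrays, against 6.06, 2.31 and 1.73 on the DMSO arrays. Each Vorinostat array lay above the DMSO array of its number (by 1.02, 0.20 and 0.51), and the groups overlapped. Vorinostat number 3 (2.24) lay under DMSO number 2 (2.31), so this single direction depends on how numbers 2 and 3 pair. PSMC1 lay under a log2 value of 3 on the number 2 and 3 arrays of both groups, so its differences there are poorly measured. It averaged 3.94 ± 2.72 with Vorinostat and 3.37 ± 2.35 with DMSO (SD, n = 3 each), and its log2 difference of 0.58 was the most positive of the 31 members (standard error 1.79, interval -3.91 to 5.06, unadjusted p = 0.759 from limma). With the block the interval was 0.05 to 1.10 (unadjusted p = 0.0376 from limma), which rests on the same pairing. Single arrays turned it, to -0.99 without Vorinostat number 1 and -0.24 without DMSO number 3, and moved it to 1.92 without DMSO number 1, 1.30 without Vorinostat number 2, 1.43 without Vorinostat number 3 and 0.0475 without DMSO number 2.
PSMC3 had 5.36, 2.38 and 3.43 with Vorinostat, against 5.72, 4.11 and 3.30 with DMSO, a log2 difference of -0.66 (standard error 0.973, unadjusted p = 0.528 from limma). PSMC6 was lower in numbers 1 and 2 (-1.08 and -1.56) and differed by 0.02 in number 3. PSMC4 had a log2 difference of -0.36 (standard error 0.870). PSMC2 had 0.26 (standard error 1.37) and was higher in numbers 1 and 3.

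Among the non-ATPase cap genes, both base scaffold subunits and 5 of the 6 lid genes had a negative log2 difference. PSMD2, which docks ubiquitin receptors and shuttles, was lower in each number (-0.41, -1.41 and -0.13) with a log2 difference of -0.65 (standard error 1.26). PSMD1, the other scaffold, had -0.29 (standard error 1.33). PSMD4, a ubiquitin receptor, had 8.71, 4.46 and 5.98 with Vorinostat, against 9.16, 5.31 and 5.96 with DMSO, and a log2 difference of -0.43 (standard error 1.48). PSMD8 of the lid had 6.48, 3.16 and 3.78 with Vorinostat, against 6.62, 4.29 and 4.24 with DMSO. Its Vorinostat arrays lay lower in each number (-0.14, -1.13 and -0.46), with a log2 difference of -0.58 (standard error 1.11, unadjusted p = 0.624 from limma). PSMD14, the deubiquitinase of the lid, had a log2 difference of 0.01 (standard error 1.88, interval -4.72 to 4.73), from -0.51, -0.69 and 1.22 within the numbers.
PSMD6, also of the lid, turned most of all between numbers 2 and 3, with -2.82 and 2.00. This depends on the pairing. PSMD6 had 3.02 on Vorinostat number 2 and 3.31 on DMSO number 3, and 5.31 on Vorinostat number 3 and 5.84 on DMSO number 2. Of the other lid genes, PSMD12 had a log2 difference of -0.56, PSMD11 of -0.38 and PSMD3 of -0.08, with standard errors between 0.919 and 1.78. The assembly chaperone PSMD9 had 4.39, 2.54 and 2.90 with Vorinostat, against 5.28, 3.40 and 2.80 with DMSO, a log2 difference of -0.55 (standard error 0.809, unadjusted p = 0.526 from limma), which was -0.20 with the mean of its probe sets. The other chaperones PSMD10 and PSMD5 had log2 differences of 0.18 and 0.03, and PSMD5 lay under a log2 value of 3 on every array.

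**Figure D3:**
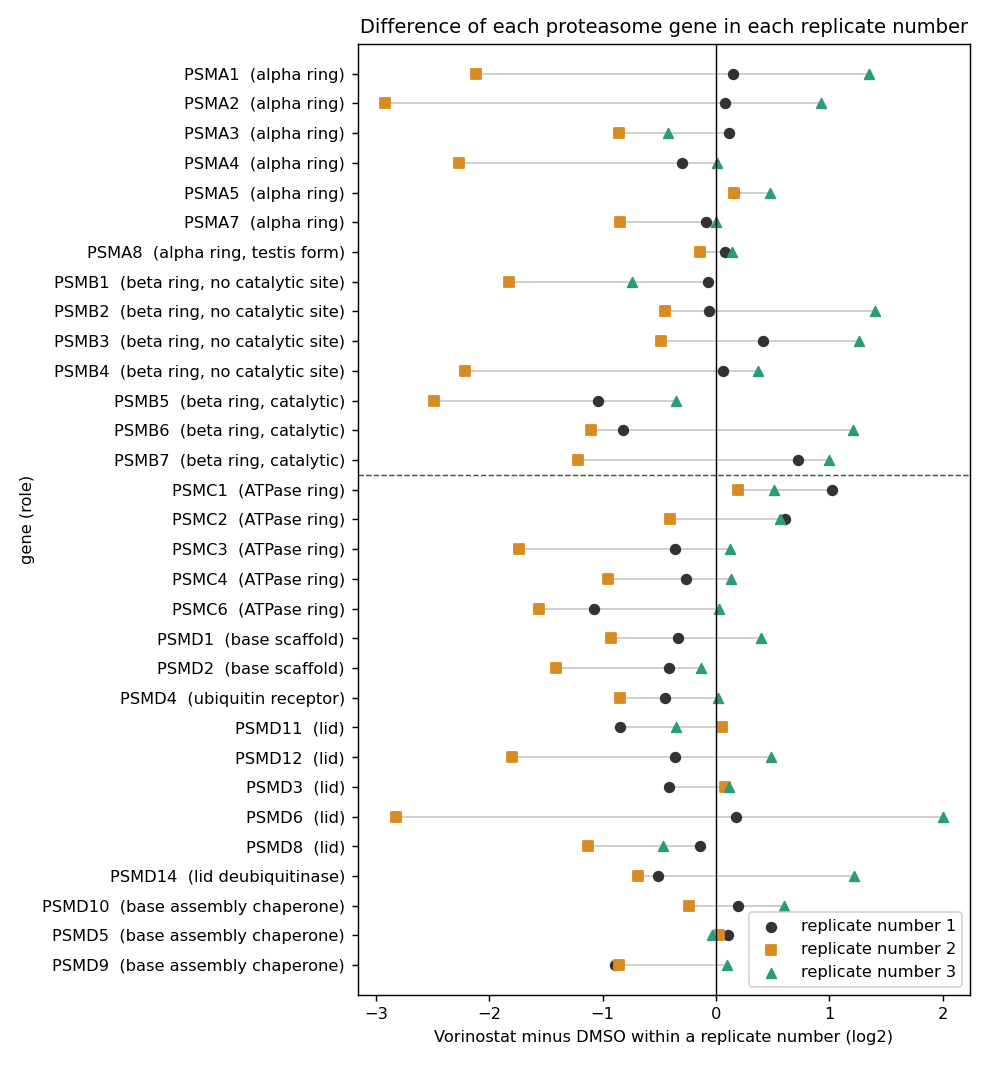
Vorinostat minus DMSO difference (log2) of each of the 31 proteasome genes within replicate numbers 1, 2 and 3, ordered by role with core genes above the dashed line. The number 2 difference is negative for 26 of the 31 genes and the number 3 difference for 8. Arrays are paired by number, and how numbers 2 and 3 pair is uncertain.

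Counted over the members with arrays paired by number, the direction depended on the replicate number. How numbers 2 and 3 pair is uncertain, so the results for these numbers depend on the pairing used. The median over the members was 2.58 on Vorinostat number 2 and 2.79 on DMSO number 3. It was 3.29 on Vorinostat number 3 and 3.80 on DMSO number 2. Lower values with Vorinostat were found for 18 of the 31 members in number 1, against 51.0% of all genes, for 26 in number 2, against 55.8%, and for 8 in number 3, against 45.3%. Of the 31 members, 20 were lower in number 2 and higher in number 3. Across the 31 genes, which are not independent replicates, the differences had Pearson correlations of 0.20 between numbers 1 and 2, 0.33 between numbers 1 and 3, and -0.13 between numbers 2 and 3. The whole group of brighter genes on the arrays differed between the numbers in the same directions. Among genes with a mean log2 value of 3 or more, 15 of 26 proteasome members were lower in number 1, against 58.7% of such genes, 24 of 26 in number 2, against 85.2%, and 6 of 26 in number 3, against 34.3%.
In all 3 numbers 5 members were lower (PSMB5, PSMB1, PSMA7, PSMD2 and PSMD8), against 13.7% of all genes, and 2 were higher (PSMC1 and PSMA5), against 13.0%. Among genes with a mean of 3 or more the same 5 and 2 of 26 stood against 19.5% and 5.71%. The share of members with 1 direction in every number was therefore near that of all genes with a mean of 3 or more. Some of these directions are poorly measured. PSMA7, PSMB5 and PSMD2 lay under a log2 value of 3 on both number 3 arrays, and PSMA7 differed there by -0.002 only. PSMC1 and PSMA5 lay under 3 on the number 2 and 3 arrays of both groups. PSMA7 also depends on the pairing, with 2.69 on Vorinostat number 2 and 2.36 on DMSO number 3. Without number 2 the members higher in each number left were 11, against 26.6% of all genes, and without number 3 those lower were 16, against 30.4%. The shares among genes with a mean of 3 or more were not counted for these settings, so no excess of members is read from them.

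With arrays paired by number, core and cap genes did not keep 1 order across the replicate numbers. The median log2 difference was -0.28 over the 14 core genes and -0.36 over the 17 cap genes, and -0.31 over all 31 members against -0.02 over all genes and -0.23 over genes with a mean of 3 or more. Core minus cap was 0.08, and within numbers 1, 2 and 3 it was 0.43, -0.30 and 0.30. It therefore changed sign between numbers as paired here, and how numbers 2 and 3 pair is uncertain. The core had medians of 0.07, -1.16 and 0.42 in numbers 1, 2 and 3, while the cap had -0.36, -0.86 and 0.13. Among members with a mean of 3 or more, 13 in the core and 13 in the cap, core minus cap was 0.42, -0.29 and 0.08. A negative difference was found for 9 of 14 core genes and 12 of 17 cap genes, 21 of the 31 members, against 53.1% of all genes. Among genes with a mean of 3 or more it was found for 18 of 26 members, against 68.8%.
Single arrays decided these medians. Over the 31 members the median was -1.37 without Vorinostat number 1, 0.35 without Vorinostat number 2, -0.01 without Vorinostat number 3, 0.75 without DMSO number 1, -0.65 without DMSO number 2 and -1.01 without DMSO number 3. Leaving out a number 1 array from 1 group keeps the brighter number 1 array in the other group only. With both number 1 arrays left out the median was -0.39, and core minus cap was -0.025.
After quantile normalisation the median over the members was -0.09 and core minus cap was 0.05. With the mean of all probe sets of a gene in place of the brightest, core minus cap was -0.04.

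The arrays that carried the same number were not always the most alike over the proteasome genes. The median absolute difference over the 31 members was 0.33 between both number 1 arrays and 0.43 between both number 3 arrays, the smallest for each of those Vorinostat arrays. The Vorinostat number 2 array differed by 0.92 from the DMSO number 2 array and by 0.48 from the DMSO number 3 array.

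Different probe sets of 1 gene did not always give the same direction. Of the members, 6 had more than 1 probe set with a mean of 3 or more (PSMA1, PSMB1, PSMB4, PSMD1, PSMD4 and PSMD12). Their probe sets had the same sign in 6 of 6 genes in number 2, in 4 in number 3, in 2 in number 1, and in 3 for the overall difference. PSMB1 showed this most plainly in number 3, where the probe set used here gave -0.74 and another one 0.86. PSMB4 had 0.37, 1.49 and -0.13 in number 3 over its 3 probe sets. The lower value of PSMB1 in each number therefore holds for 1 of its brighter probe sets only. PSMB5 and PSMC1 have 1 probe set each, so the same check was not possible for them.

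The beta subunits of the immunoproteasome, which can replace PSMB5, PSMB6 and PSMB7, for example in cells exposed to interferon, also turned between numbers. PSMB10 had 5.07, 2.34 and 2.66 with Vorinostat, against 6.10, 4.76 and 2.14 with DMSO, a log2 difference of -0.98 (standard error 1.24). PSMB9 had 6.63, 3.08 and 3.50 with Vorinostat, against 5.69, 4.22 and 2.02 with DMSO, and a difference of 0.42 (standard error 1.33). PSMB8 had -0.05 (standard error 1.24). All 3 were lower in number 2 and higher in number 3.
Of 29 other listed genes of the pathway, these 3 included, 25 were measured and 18 had a negative log2 difference, where 53.1% of all genes and 68.8% of genes with a mean of 3 or more did. At an adjusted p under 0.05 from limma 0 were called, against 0% of all genes, and at an unadjusted p under 0.05 also 0, against 0.389% lower and 0.602% higher. Of the 6 assembly chaperones of the core or the cap, 5 were negative and 6 were lower in number 2, in which 85.2% of genes with a mean of 3 or more were lower. POMP, which matures the core, had 9.16, 4.73 and 6.83 with Vorinostat, against 9.33, 7.32 and 7.36 with DMSO, a log2 difference of -1.09 (standard error 1.24, unadjusted p = 0.417 from limma). PSMG2, a chaperone of alpha ring assembly, was lower in each number (-0.19, -1.26 and -1.26), and alone among the 25 had an unadjusted limma p under 0.05 with the block (0.0251), 1 lower gene of 25 against 3.12% of all genes and 9.35% of those with a mean of 3 or more.
Of the activators and the inhibitor PSMF1, 3 of 4 measured were negative, and PSMF1 had the lowest unadjusted p with -0.50 (standard error 1.05). Of 5 other cap-bound factors 4 were negative, among them the deubiquitinase USP14 with -0.69 (standard error 0.845). NFE2L1, the transcription factor that induces proteasome genes when the complex is inhibited, had 3.11, 2.32 and 3.16 with Vorinostat, against 3.90, 3.69 and 2.20 with DMSO. Its log2 difference was -0.40 (standard error 0.522), with -0.79, -1.37 and 0.96 within the numbers. Of the 7 transcription and shuttle factors measured, 7 were lower in number 2 and 0 in number 3, where the shares among genes with a mean of 3 or more were 85.2% and 34.3%.

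The medians of other large complexes are given beside those of the proteasome genes. The 52 cytosolic ribosomal protein genes had medians of -0.01, -2.26 and -0.36 in numbers 1, 2 and 3, and 75 mitochondrial ribosomal protein genes had -0.34, -0.60 and 0.12. Both ribosomal lists include genes with a mean under 3. The 26 proteasome members with a mean of 3 or more had -0.08, -1.11 and 0.44, against -0.15, -0.73 and 0.20 over all 3379 genes with such a mean. In number 2 the proteasome median thus lay below that of all genes with a mean of 3 or more, and the cytosolic ribosomal median lay lower still. The mitochondrial median lay above that of all genes with a mean of 3 or more. The proteasome members were not matched to those genes in level. Their median value was 4.24 against 3.62 on DMSO number 2, and 2.93 against 2.86 on Vorinostat number 2. The 11 housekeeping genes measured had 0.02, -1.70 and -0.24. On DMSO number 2 the median value was 8.88 for the cytosolic ribosomal, 5.99 for the housekeeping and 2.95 for the mitochondrial ribosomal genes. The order of the lists in the number 2 difference was thus also their order of level on that array. The part that level has in this order was not tested. These medians are a description, and no difference between the lists was tested.

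**Figure D4:**
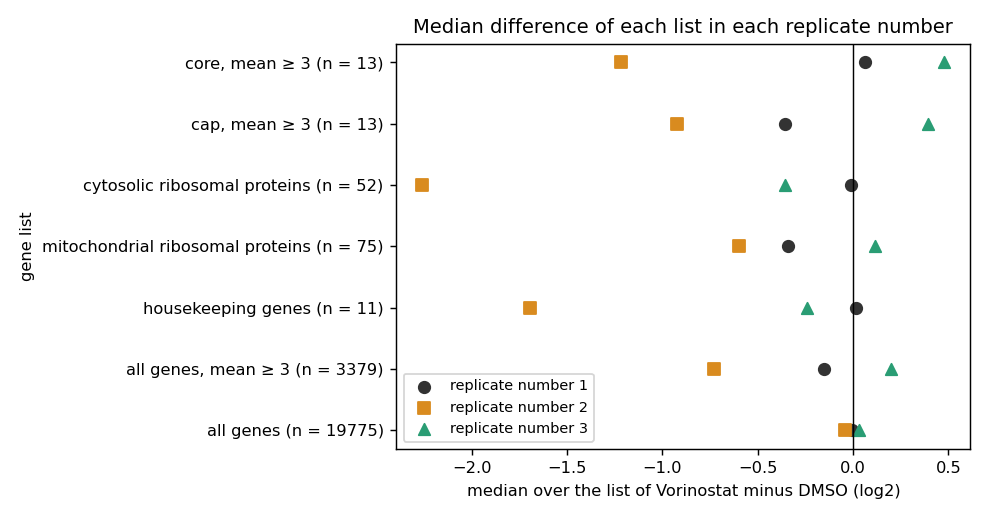
Median Vorinostat minus DMSO difference (log2) of gene lists within replicate numbers 1, 2 and 3. The core and cap genes with a mean of 3 or more (13 each) stand at -1.22 and -0.92 in number 2, between the cytosolic ribosomal protein genes (-2.26) and all genes with a mean of 3 or more (-0.73). The lists were not matched in level.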

How the data were processed

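Total RNA of 6 OCI-AML3 samples was measured on Affymetrix arrays. Per the labels and the values, the deposited table gives log2 signals, 1 for each probe set on each array. The authors imported the scans into Partek Genomics Suite per the methods; MAS5 and RMA also stand in the submitters' processing notes, their role not stated. Values ran between 0.868 and 13.76, and the upper percentiles of the arrays differ, so they are not quantile normalised. Without the 62 control probe sets, limma 3.58.1 under R 4.3.3 (lmFit, then eBayes; Vorinostat minus DMSO; no block, filter or further normalisation) was run on 54613 and p-values were adjusted by Benjamini-Hochberg over all of them. Symbols came from the platform annotation, updated by gene ID, and 41091 probe sets name 1 gene. The 19775 genes are each represented by the probe set with the highest mean.

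The members and lists were chosen with earlier results of these data known. Genes given in full are PSMB5, PSMB6 and PSMB7, the 3 core and 3 cap members with the lowest unadjusted p, and the extremes of the log2 difference; other members are given more briefly. From each list of pathway genes the one with the lowest unadjusted p is given, and PSMB8, PSMB9 and PSMG2 were added after their values were seen. Deviations from the group means correlated at 0.874, 0.599 and 0.672 between arrays of numbers 1, 2 and 3, each above 0.1. The number was therefore taken to pair them. Vorinostat number 2 gave 0.695 with DMSO number 3, and Vorinostat number 3 gave 0.594 with DMSO number 2. The correlations therefore do not settle how numbers 2 and 3 pair. The fit was tested on simulated data drawn independently for each array, without an effect shared by arrays of the same number. That test therefore does not show how the fit behaves with such effects. With 3 arrays a group, the smallest two-sided p of an exact permutation test is 0.1, and none is reported. Alternatives were quantile normalisation, 75th percentile centring, a filter at a mean of 3, the block, the mean of all probe sets of a gene, the methods' t-test, and leaving out each array or number.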

Additional observations from a re-analysis of the deposited data

How the results depend on the processing

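With 75th percentile centring, the filter at a mean of 3 (which kept 26 members), the mean of all probe sets of a gene and the methods' t-test, 0 of the 31 members passed an unadjusted p under 0.05 in either direction, and 0 passed an adjusted p under 0.05 under any alternative run. Quantile normalisation gave 2 lower members at an unadjusted p under 0.05 from limma (PSMB5 and PSMD9; 1.18% of all genes), 1 lower member past the threshold of the study (PSMB5; 0.273%) and 1 with all Vorinostat arrays below all DMSO arrays (2.96%), left 5 members higher in every number (14.6%), and turned PSMB4 to 0.14. It also moved PSMB1 to -0.22, PSMB6 to -0.11 and PSMB7 to 0.30, and the mean of all probe sets moved PSMB1 to -0.54, PSMB4 to -0.33 and PSMD9 to -0.20. The replicate block gave 1 lower member at an unadjusted p under 0.05 (PSMB5), which was also past the threshold of the study, and 1 higher member (PSMC1), and changed no other call.

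When single arrays or both arrays of a number were left out, between 0 and 2 members were lower at an unadjusted p under 0.05 from limma. The 2 were PSMA3 and PSMD8, without both number 1 arrays, where 2.45% of all genes were lower. Members with groups apart numbered 0 to 5 lower and 0 to 2 higher. Without both number 1 arrays they were 5 and 2, against 17.5% and 15.5% of all genes, 5 were lower without Vorinostat number 1 (10.8%) and 2 higher without DMSO number 1 (7.02%). Members with 1 direction in every number left were 6 to 16 lower and 3 to 11 higher. The highest counts stood against 30.4% and 26.6% of all genes. The median difference ranged between -1.37 and 0.75 over the members, between -1.49 and 0.96 over the core and between -1.34 and 0.75 over the cap, and core minus cap between -0.23 and 0.28. PSMB5 stayed negative, between -2.13 and -0.58. The ranges of the others were -1.31 to 1.12 for PSMB6, -1.16 to 1.25 for PSMB7, -1.88 to 0.0548 for PSMB1, -1.59 to 0.35 for PSMB4, -1.11 to 0.18 for PSMD9, -1.48 to 0.0168 for PSMC3, -1.58 to 0.21 for PSMD8 and -0.99 to 1.92 for PSMC1. The cause was not tested. On the number 2 and 3 arrays 8 to 19 of the 31 members lay under a log2 value of 3, where a difference is poorly measured.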
